A study of Mus musculus with 15 samples.

Results

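The genes described here are 10 genes for neuronal RNA-binding proteins: Rbfox1, Rbfox2, Rbfox3, Nova1, Nova2, Elavl2, Elavl3, Elavl4, Msi2 and Ptbp2. They were found by symbol, all 10 of them, among 35976 genes in a table of nuclear RNA counts from the mouse ventral tegmental area. The set was drawn up with earlier results of the same libraries known, in which Rbfox1 was among the lower genes of dopaminergic nuclei with the lowest p-values. Differences between dopaminergic and non-dopaminergic nuclei are therefore given for the 10 genes as a description, with no test, and differences between the stages of the cocaine schedule are tested.

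The mice were male heterozygous DAT-Cre animals (B6.SJL-Slc6a3tm1.1(cre)Bkmm/J), 8 to 12 weeks old, in which Cre is made from the dopamine transporter gene. All groups had the AAV5-DIO-KASH-HA virus injected into the ventral tegmental area, so that transduced cells with Cre carried an HA tag on the nuclear envelope, and all were trained over 7 days to press a lever for food. Nuclei from 2 mice were pooled per sample and sorted into HA-positive (dopaminergic, DA) and HA-negative (non-dopaminergic, nDA) nuclei, so an untransduced dopaminergic nucleus falls into the second population. Food-trained mice were collected after the last food session, without cocaine (DA, n = 4; nDA, n = 4). Maintenance mice (DA, n = 3) had also worked for intravenous cocaine in 1 hour sessions, for 5 days at 0.3 mg/kg per infusion and for 10 days at 1.0 mg/kg per infusion. Abstinence mice (DA, n = 4), which the labels call craving, had the same cocaine schedule followed by 21 days in the home cage. Catheters were implanted after food training, so cocaine intake, surgery and time differ together between food-trained and later mice.

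RNA-binding proteins of these families act on the RNA that leaves the transcription machinery. Rbfox, Nova and Ptbp2 proteins set which alternative exons neurons keep or skip; Elavl proteins of the neuronal kind (Hu proteins) also stabilise messages and control their translation; Musashi proteins are known as translational regulators, first studied in neural progenitors. Rbfox3 is the antigen NeuN, widely used to mark neuronal nuclei, which many dopaminergic neurons of the midbrain show only weakly. Counts per gene do not show which exons were used, so nothing here measures splicing itself.

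Libraries held between 25813697 and 59046618 counts. Values are counts scaled to a common library total with TMM factors (CPM), and intervals and tests cover the spread between these pooled samples. The 13 dopaminergic marker genes fixed for the check, among them Slc6a3 and Th, summed to between 6056 and 13330 CPM in the 11 DA libraries and to between 384 and 583 CPM in the 4 nDA libraries. The 15 pan-neuronal markers summed to 7543 to 10180 CPM in food-trained DA libraries and to 4529 to 5598 CPM in nDA libraries. The 13 oligodendrocyte markers summed to 1887 to 2930 CPM in the former and to 10470 to 24910 CPM in the latter, and 8 astrocyte markers to 1511 to 1888 CPM and 2177 to 4278 CPM. The labels call the nDA nuclei neurons, but the sort took HA-negative nuclei of any kind, and their libraries held more glial RNA. Its part in the differences between the populations was not tested, and fewer cells of a type cannot be told apart from less RNA per cell.

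The paralogues are similar enough that shared reads had to be considered. In the longest coding sequence of each gene (GENCODE M21, GRCm38), no stretch of 50 bases was shared between any 2 Rbfox, any 2 Elavl or the 2 Nova genes. Longest identical runs between pairs of these Rbfox and Elavl sequences are shown, each given 5′ to 3′ on the coding strand. Untranslated regions, introns, other isoforms and matches with mismatches were not compared, so the runs do not bound what a read could confuse.
Rbfox1 and Rbfox2: accgtggtagagggccgtaaaatcgaggt
Rbfox1 and Rbfox3: gcctacagtgacagtta
Elavl3 and Elavl4: ttcggcttcgtcaccatgaccaactacga
Elavl2 and Elavl4: accatgacccagaaggagctgga
The runs of Rbfox1 with Rbfox2 and of Elavl3 with Elavl4 are 29 bases long, that of Rbfox1 with Rbfox3 is 17 and that of Elavl2 with Elavl4 is 23.

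Rbfox1 lies on chromosome 16 (5885355 to 7411526, plus strand, GRCm38), a gene of 1526.2 kb whose longest annotated transcript has 3.06 kb. Msi2 lies on chromosome 11 (88339382 to 88718513, minus strand) over 379.1 kb. No exonic base of Rbfox1, Rbfox2, Rbfox3, Elavl2, Elavl4, Msi2 or Ptbp2 was shared with an exon of another gene. In Nova2, 31.7% of exonic bases overlap Gm26821 on the opposite strand, and as the use of strand in counting is not given in the sources used here, Nova2 counts are uncertain to that extent. In Nova1 and Elavl3 the overlap was 3.54% and 3.72%, with genes on the same strand.

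Rbfox1 has more than one start in RefSeq (GRCm38.p6), and the 250 bases before the 2 starts listed there are shown because this gene had the widest difference between the populations; capitals mark CpG dinucleotides. The first is chr16:5884543-5884792 and the second chr16:7069585-7069834, both on the plus strand.
Rbfox1 first start: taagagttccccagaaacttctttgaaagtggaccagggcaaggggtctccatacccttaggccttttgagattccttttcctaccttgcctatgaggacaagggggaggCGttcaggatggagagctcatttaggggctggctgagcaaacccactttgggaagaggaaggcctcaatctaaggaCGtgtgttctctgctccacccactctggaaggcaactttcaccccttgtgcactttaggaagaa
Rbfox1 second start: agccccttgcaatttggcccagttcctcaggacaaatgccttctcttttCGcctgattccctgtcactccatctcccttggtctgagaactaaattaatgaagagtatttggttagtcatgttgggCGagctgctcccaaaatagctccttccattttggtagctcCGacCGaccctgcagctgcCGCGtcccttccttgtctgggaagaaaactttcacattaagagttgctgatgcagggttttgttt
These windows hold 2 and 6 CpG dinucleotides, against a median of 6 in 32841 windows of the same length in the table. The window before the first listed start of Msi2 holds 29, as many as or more than 94.1% of the windows, and its GC content is 75.6%. It also contains the cAMP response element TGACGTCA, which was searched on both strands and is present in 1.55% of windows. The element lies inside the annotated Msi2 gene, downstream of its GENCODE start at 88718513 on the minus strand. In this window 62 bases lie in an annotated exon. That site is shown with 10 bases on either side, chr11:88718429-88718456 on the minus strand, with the element in capitals.
Msi2 element: acggggtgcgTGACGTCAccgcattggt
No window of the other members with an entry held this element, and none of any member held the AP-1 site TGANTCA, present in 6.75% of windows. A match is a run of letters and says nothing of binding, and entries were found for 9 of the 10 genes.

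Between the populations of food-trained mice, Rbfox1 was the member with the widest difference. It stood at 65.8, 73.1, 81.5 and 79.4 CPM in the DA libraries and at 377, 388, 473 and 325 CPM in the nDA libraries. The lowest nDA library was above the highest DA library by a wide margin. The fitted log2 difference was -2.37 (SE 0.18), which is 5.17-fold lower in DA nuclei. Rbfox3, the NeuN gene, stood at 59.2, 50.3, 24.9 and 45.2 CPM in DA and at 111.8, 101.0, 102.1 and 94.6 CPM in nDA nuclei, again without overlap (log2 difference -1.18, SE 0.26). Rbfox2 did not separate the populations, with 171 to 264 CPM in DA and 203 to 274 CPM in nDA nuclei and a log2 difference of -0.18 (95% interval -0.61 to 0.25).

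The neuronal Elavl genes differed in opposite directions. Elavl2 stood at 337, 355, 453 and 394 CPM in DA libraries and at 162, 151, 178 and 141 CPM in nDA libraries. Elavl4 stood at 183, 216, 201 and 163 CPM in DA libraries and at 62.0, 95.7, 73.0 and 75.1 CPM in nDA libraries. Both were higher in every DA library than in any nDA library, by 1.29 (SE 0.17) and 1.33 (SE 0.19) on the log2 scale. Elavl3 was the reverse, at 96.2, 99.9, 105.9 and 86.3 CPM in DA and at 210, 141, 239 and 186 CPM in nDA nuclei (log2 difference -0.99, SE 0.20), again without overlap.

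The remaining members overlapped between the populations. Nova1 ranged from 49.4 to 121.5 CPM in DA and from 68.0 to 87.6 CPM in nDA nuclei. Nova2 was the lowest member, from 1.77 to 27.3 CPM in DA and from 23.5 to 58.4 CPM in nDA nuclei, with a 95% interval of -2.99 to 0.16 for the log2 difference. Ptbp2 ranged from 43.8 to 125.7 CPM and from 50.6 to 74.8 CPM. Msi2 ranged from 195 to 567 CPM in DA and from 95.7 to 286 CPM in nDA nuclei, where replicate 2 was the low one.

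The groups of 5 members did not overlap between the populations, 2 higher and 3 lower in DA nuclei, against 26.1% of all 19786 genes. Nothing is read from this count, since Rbfox1 was chosen from this contrast. The median log2 difference of the members was -0.06 and that of all genes -0.21.

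**Figure D1:**
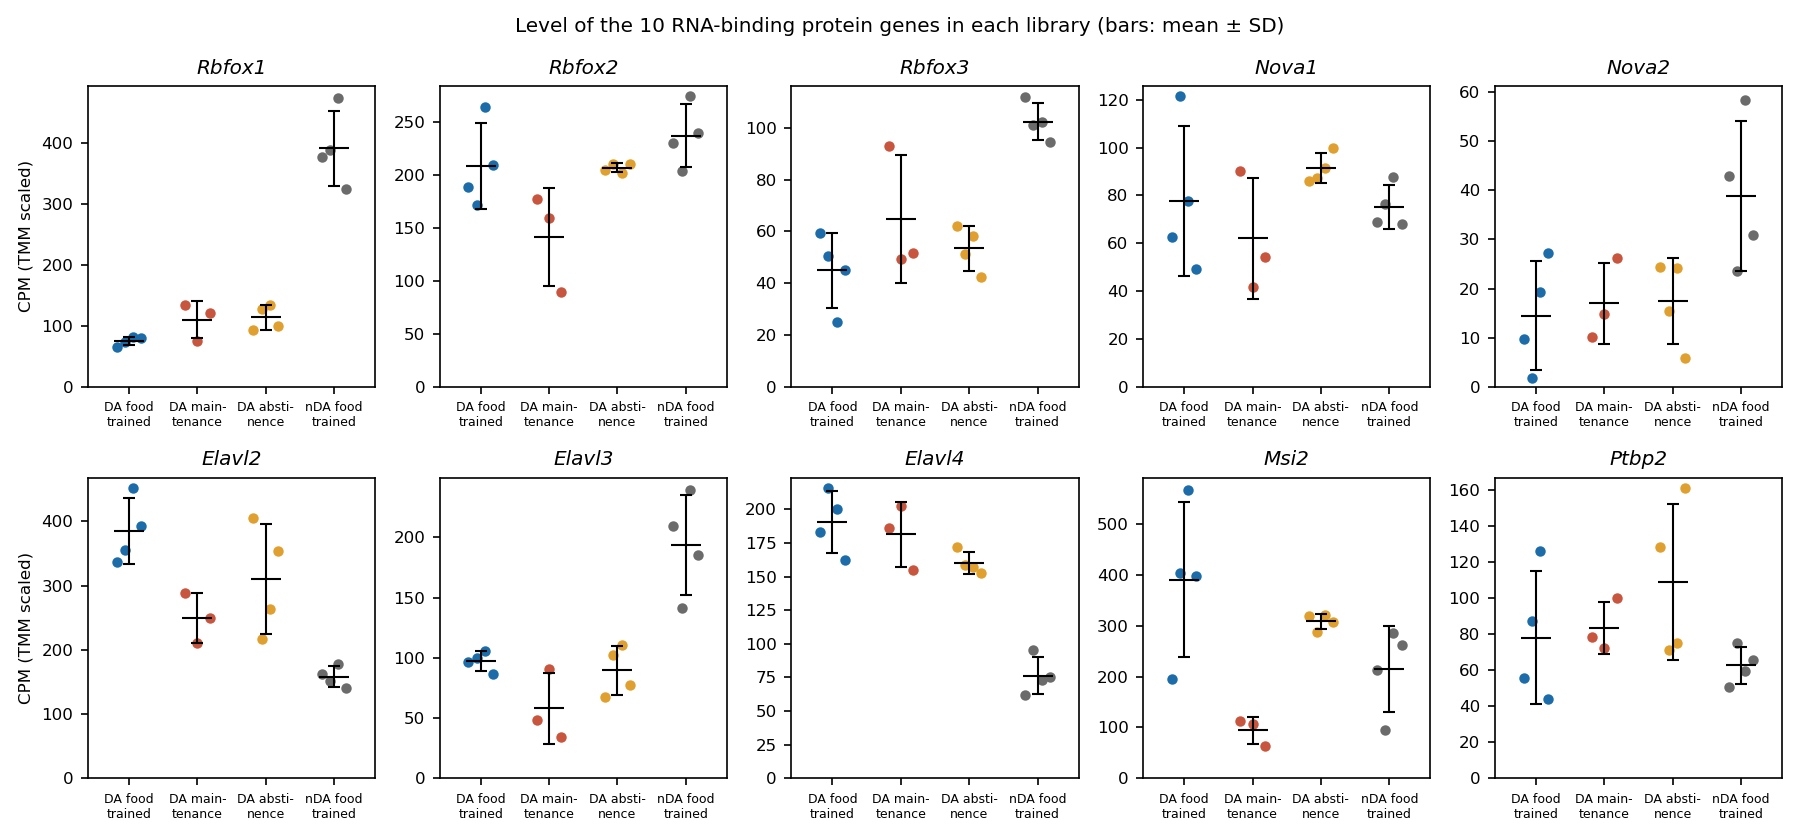
Levels of the 10 genes in each library, in CPM on a linear axis from 0; points are libraries, bars the mean ± SD of the group (n = 4, 3, 4 and 4). Rbfox1 lies between 65.8 and 134.7 CPM in all 11 DA libraries and between 325 and 473 CPM in the nDA libraries, and Msi2 is between 63.7 and 112.8 CPM in the 3 maintenance libraries.

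Levels of different genes can be set side by side only per length, here as CPM per kb of the longest annotated transcript, which is an approximation because the isoforms present are not known. On that scale Rbfox1 was the highest Rbfox gene in nDA nuclei, with 127.7 ± 20.01 CPM per kb (SD, n = 4) against 34.3 ± 4.26 for Rbfox2 and 32.5 ± 2.26 for Rbfox3. In food-trained DA nuclei Rbfox1 and Rbfox2 lay close together, at 24.5 ± 2.31 and 30.1 ± 5.87 CPM per kb, with Rbfox3 at 14.3 ± 4.62. Rbfox1 thus made up 65.5% ± 2.81 of the summed Rbfox level per kb in nDA and 35.6% ± 2.47 in food-trained DA nuclei (SD, n = 4 each). Among the Elavl genes, Elavl2 led in DA nuclei with 91.8 ± 12.2 CPM per kb, followed by Elavl4 with 45.9 ± 5.54 and Elavl3 with 19.4 ± 1.64. In nDA nuclei Elavl2 and Elavl3 were about level, at 37.8 ± 3.81 and 38.7 ± 8.27 CPM per kb, and Elavl4 was lowest at 18.4 ± 3.38. Elavl3 made up 12.4% ± 0.85 of the family in food-trained DA and 40.5% ± 5.62 in nDA nuclei.

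Ratios of paralogues within a library do not depend on how libraries are scaled. The log2 ratio of Rbfox1 to Rbfox2 counts was -1.51, -1.22, -1.70 and -1.39 in the food-trained DA libraries and 0.71, 0.94, 0.79 and 0.44 in the nDA libraries. All 4 DA values were negative and all 4 nDA values positive. For Elavl3 to Elavl4 it was between -1.11 and -0.91 in DA and between 0.56 and 1.76 in nDA libraries, also of opposite sign. The ratio of Elavl2 to Elavl4 overlapped, with means of 1.01 ± 0.26 and 1.06 ± 0.34 (SD, n = 4 each), so those genes stood in a like proportion in both populations while both were higher in DA nuclei. Nova1 to Nova2 varied most, from 0.86 to 6.10 in DA and from 0.59 to 1.70 in nDA libraries, and the highest value came from a library with 62 Nova2 counts.

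**Figure D2:**
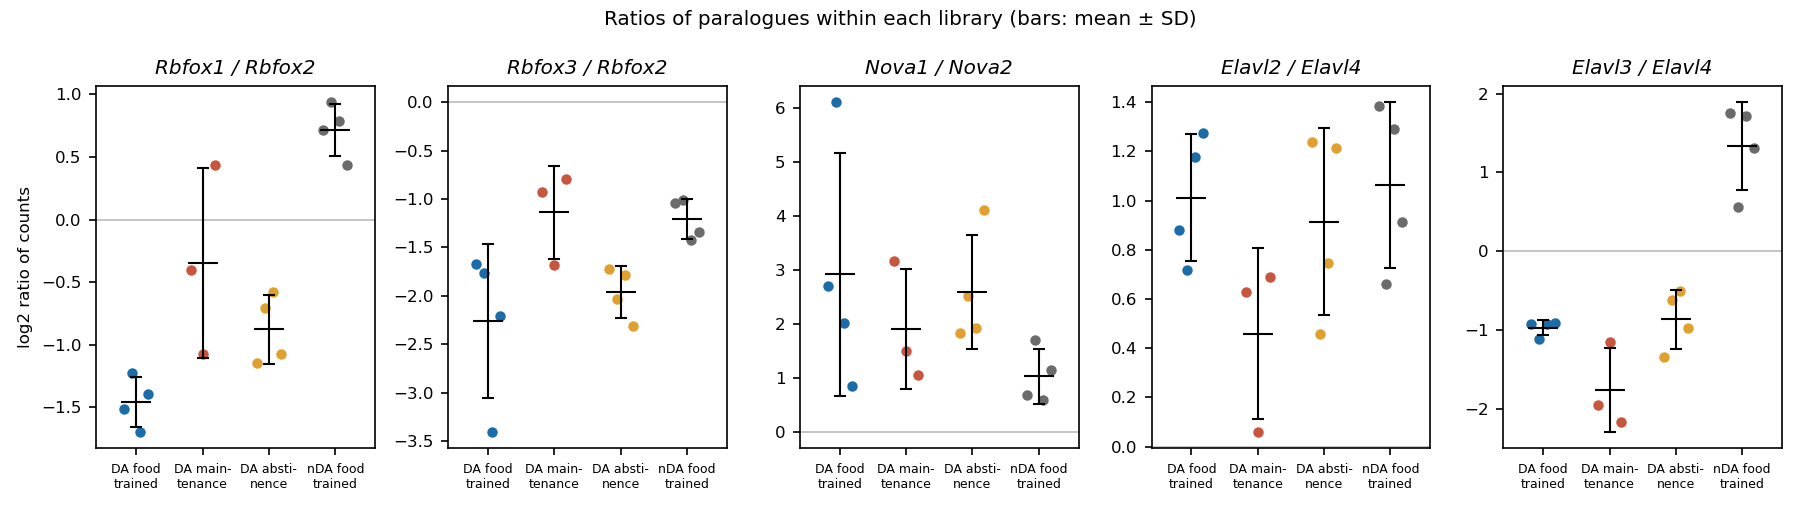
Log2 ratios of counts for 5 pairs of paralogues, 1 point per library, with the mean ± SD of each group (n = 4, 3, 4 and 4). Rbfox1 to Rbfox2 lies between -1.70 and -1.22 in food-trained DA and between 0.44 and 0.94 in nDA libraries, and Elavl3 to Elavl4 is negative in all 11 DA and positive in all 4 nDA libraries.

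The first stage comparison asked which members differed in DA nuclei after cocaine maintenance. Msi2 fell, and it was the member that passed the threshold. It stood at 195, 405, 567 and 397 CPM in food-trained libraries and at 112.8, 106.8 and 63.7 CPM at maintenance, so every maintenance library was below every food-trained one. The log2 difference was -2.06 (SE 0.34, 95% interval -2.79 to -1.32), a 4.16-fold lower level, with an edgeR adjusted p of 0.0344. This is 1 of 10 members, against 0.131% of all 19060 genes (0.126% lower). The call did not hold without food-trained replicate 2 (edgeR adjusted p 0.0629) or 4 (0.104) or without maintenance replicate 1 (0.0891) or 3 (0.175), and the log2 difference in the 7 fits that left out a library ran from -2.28 to -1.82. It was also lost with all 15 libraries in the fit (edgeR adjusted p 0.0637) and with only these 2 stages in it (0.205), and kept with DESeq2 (adjusted p 4.70e-08).

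Sums of oligodendrocyte and astrocyte markers also differed between these libraries. Those of microglia overlapped, at 515.7 to 1088 CPM at maintenance and 561.3 to 1095 CPM after food training. Oligodendrocyte precursor sums also overlapped, at 23.0 to 54.8 CPM and 1.05 to 42.9 CPM. Oligodendrocyte markers summed to 1232 to 1877 CPM at maintenance, below the 1887 to 2930 CPM of all 4 food-trained libraries, with 1 of 13 called lower and 0 higher (median log2 difference -0.76), and to 1241 to 2099 CPM at abstinence. Astrocyte markers summed to 1892 to 2147 CPM at maintenance, above the 1511 to 1888 CPM after food training, with 0 of 8 called, and to 1183 to 1625 CPM at abstinence. Their part in the Msi2 difference was not tested.

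A low Msi2 level was also found in 1 library of another group. Replicate 2 of the food-trained nDA nuclei held 95.7 CPM of Msi2, against 214, 286 and 262 CPM in the other 3. That library and the 3 maintenance libraries also had the lowest GC slopes, the change in log2 CPM with each percent of GC in a gene's transcript, fitted over 8171 genes. The slope was -0.0379 to -0.0225 at maintenance, -0.0247 in nDA replicate 2, -0.0166 to 0.0206 in the 8 other DA libraries and 0.0211 to 0.0325 in the 3 other nDA libraries. A negative slope means that genes of higher GC content were relatively lower in that library. Msi2's longest transcript has a GC content of 42.3%, where the members run from 34.2% (Ptbp2) to 58.6% (Rbfox3). The part of the slope in the Msi2 level was not tested. With a term for these 4 libraries in a fit of all 15, the Msi2 log2 difference at maintenance was -0.67 (edgeR adjusted p 0.999925). This term rests on nDA replicate 2 alone, and since all maintenance libraries are in the set, that shift and the stage cannot be told apart within DA nuclei.

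**Figure D3:**
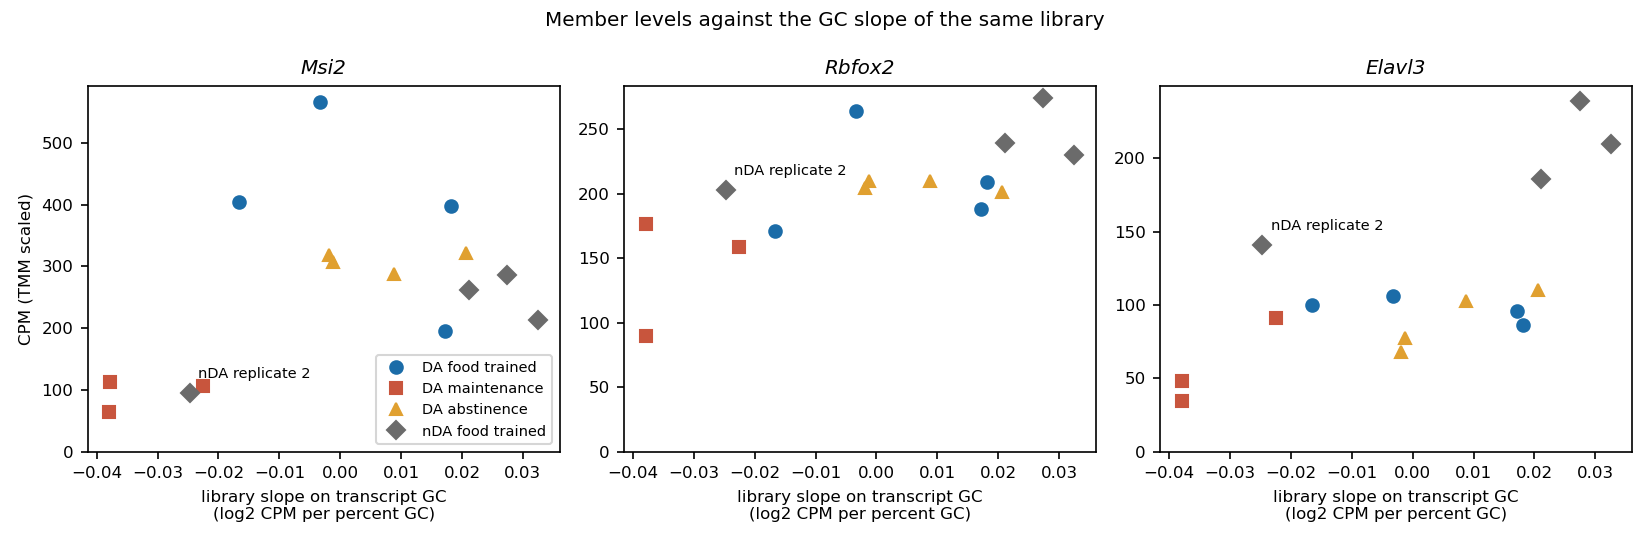
Level of Msi2, Rbfox2 and Elavl3 (CPM, linear axis from 0) against the GC slope of the same library (log2 CPM per percent GC of the transcript), 1 point per library, 15 in all. The 3 maintenance libraries and nDA replicate 2 lie at slopes of -0.0225 or below and hold the lowest Msi2 levels, 63.7 to 112.8 CPM.

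The other 9 members did not pass at maintenance. At an unadjusted p under 0.05 there were 4 of 10 members, against 11.6% of all genes: Rbfox1, Elavl2, Elavl3 and Msi2. Elavl2 stood at 288, 211 and 250 CPM, all below the food-trained range of 337 to 453 CPM (log2 difference -0.63, SE 0.26, edgeR adjusted p 0.400). Elavl2 and Msi2 were the 2 of 10 members with groups that did not overlap, against 8.45% of genes. Elavl3 stood at 48.3, 91.1 and 34.4 CPM, with replicate 2 inside the food-trained range (-0.75, SE 0.32, edgeR adjusted p 0.410). Its log2 difference was -1.27 without maintenance replicate 2, -0.47 without replicate 3 and -0.18 with the term for the 4 libraries. Rbfox1 stood at 133.5, 75.5 and 121.0 CPM, with replicate 2 again inside that range (0.54, SE 0.25, edgeR adjusted p 0.423). Rbfox2 stood at 176.9, 158.8 and 89.4 CPM, where replicate 3 was low (-0.56, SE 0.26, edgeR adjusted p 0.434), and its log2 difference was -0.31 without that library and -0.29 with the term. Elavl4 had the narrowest interval, -0.53 to 0.37, around a log2 difference of -0.08. Rbfox3 stood at 93.1, 49.4 and 51.6 CPM, 2 of which lay inside the food-trained range, and Nova1 at 90.2, 41.8 and 54.1 CPM. Nova2 stood at 10.1, 14.7 and 26.1 CPM and Ptbp2 at 78.3, 72.4 and 99.7 CPM, all inside the food-trained ranges. The intervals of Rbfox3, Nova1, Nova2 and Ptbp2 included 0 and reached differences of 0.93 or more in size. The median over the members was -0.21 and over all genes -0.01.

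Within libraries, the log2 ratio of Rbfox1 to Rbfox2 at maintenance was -0.41, -1.07 and 0.44, each above the food-trained range. Rbfox3 to Rbfox2 was -0.93, -1.68 and -0.79, where replicate 2 lay within the food-trained range of -3.41 to -1.67. Elavl3 to Elavl4 was -1.95, -1.15 and -2.17, each below the food-trained range. Elavl2 to Elavl4 was 0.63, 0.06 and 0.69, also each below the food-trained range of 0.716 to 1.275. These ratios are free of scaling, but most of the paired genes differ in GC content. It was 45.0% for Rbfox1, 51.5% for Rbfox2, 58.6% for Rbfox3, 54.1% for Elavl3 and 38.9% for Elavl4. Elavl2, at 38.5%, was close to Elavl4. The part of the GC slope in these ratios was not tested.

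After 21 days of abstinence, no member passed against food training by edgeR's test (0 of 10, against 0% of all 19060 genes), and none passed with DESeq2. At an unadjusted p under 0.05 there was 1 of 10, against 4.3% of genes, and it was Rbfox1. Rbfox1 stood at 92.5, 128.4, 134.7 and 99.95 CPM, above the 65.8 to 81.5 CPM of all 4 food-trained libraries. Its log2 difference was 0.59 (SE 0.23, 95% interval 0.09 to 1.09), with an edgeR p of 0.0242 and an adjusted p of 0.999974. It was the member whose groups did not overlap (1 of 10, against 3.34% of genes). In the 8 fits that left out a library the difference ran from 0.50 to 0.67. The 3 GABA neuron markers summed to 195.7, 413.4, 376.3 and 203.9 CPM in the same abstinence libraries and to 350.4, 159.3 and 320.5 CPM at maintenance. After food training the sums were 160.7 to 220.2 CPM, and 0 of 3 were called at either stage (median log2 differences 0.56 and 0.99). Glutamate neuron sums overlapped, 427.6 to 963 CPM at abstinence and 166.8 to 665.6 CPM after food training. The part of such RNA in the Rbfox1 levels was not tested.

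Across the 4 groups Rbfox1 therefore had its highest mean in nDA nuclei, 391 ± 61.3 CPM (SD, n = 4), then 113.9 ± 20.8 CPM at abstinence (n = 4), 110.0 ± 30.5 CPM at maintenance (n = 3) and 75.0 ± 7.06 CPM in food-trained DA nuclei (n = 4). The middle pair differed by less than their SDs, and maintenance overlapped food training. All 11 DA libraries lay below the 4 nDA libraries, but nDA nuclei were collected from food-trained mice alone. The log2 ratio of Rbfox1 to Rbfox2 at abstinence was -1.15, -0.71, -0.58 and -1.07, each above the food-trained range and below the nDA range.

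Rbfox2 varied little at abstinence, at 205, 210, 201 and 210 CPM, with a log2 difference from food training of -0.02 (95% interval -0.54 to 0.50). Msi2 stood at 318, 287, 322 and 308 CPM, within the wide food-trained range (-0.35, 95% interval -0.99 to 0.29). Elavl2, Elavl3 and Elavl4 had log2 differences of -0.31 (95% interval -0.83 to 0.20), -0.13 (-0.76 to 0.51) and -0.26 (-0.68 to 0.16). Nova1 was at 86.1 to 99.98 CPM in the 4 abstinence libraries, a narrower spread than the 49.4 to 121.5 CPM after food training. Ptbp2 was split, with 127.9 and 160.7 CPM in replicates 1 and 4 and 71.3 and 75.0 CPM in replicates 2 and 3. Rbfox3 ranged from 42.4 to 62.2 CPM and Nova2 from 5.82 to 24.3 CPM. The median over the members was 0.10 and over all genes 0.04.

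Abstinence was also set against maintenance; the 3 stage comparisons share their libraries in pairs and are not independent of each other. None of the 10 members passed with edgeR, against 0.178% of genes, and 1 of 10 had an unadjusted p under 0.05, against 9.92% of genes. That member was Msi2, higher at abstinence by 1.71 on the log2 scale (SE 0.34, 95% interval 0.98 to 2.43, edgeR adjusted p 0.0716). The DESeq2 test called Msi2 (adjusted p 2.04e-05), and with the term for the 4 libraries its log2 difference was 0.32. Msi2 and Rbfox2 were the 2 of 10 members without overlap, against 12.2% of genes. Rbfox2 had a log2 difference of 0.54 (SE 0.26, edgeR adjusted p 0.520), Elavl3 one of 0.62 (SE 0.32, edgeR adjusted p 0.563) and Rbfox1 one of 0.05 (95% interval -0.49 to 0.59). Without maintenance replicate 3 the difference was 0.29 for Rbfox2 and 0.34 for Elavl3, without replicate 2 it was 1.14 for Elavl3, and with the term it was 0.27 for Rbfox2 and 0.05 for Elavl3. The median over the members was 0.35 and over all genes 0.05. Tested over all 3 stages at once, no member passed, against 0.0839% of genes, with an edgeR adjusted p of 0.106 for Msi2 and 0.635 for Rbfox1.

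**Figure D4:**
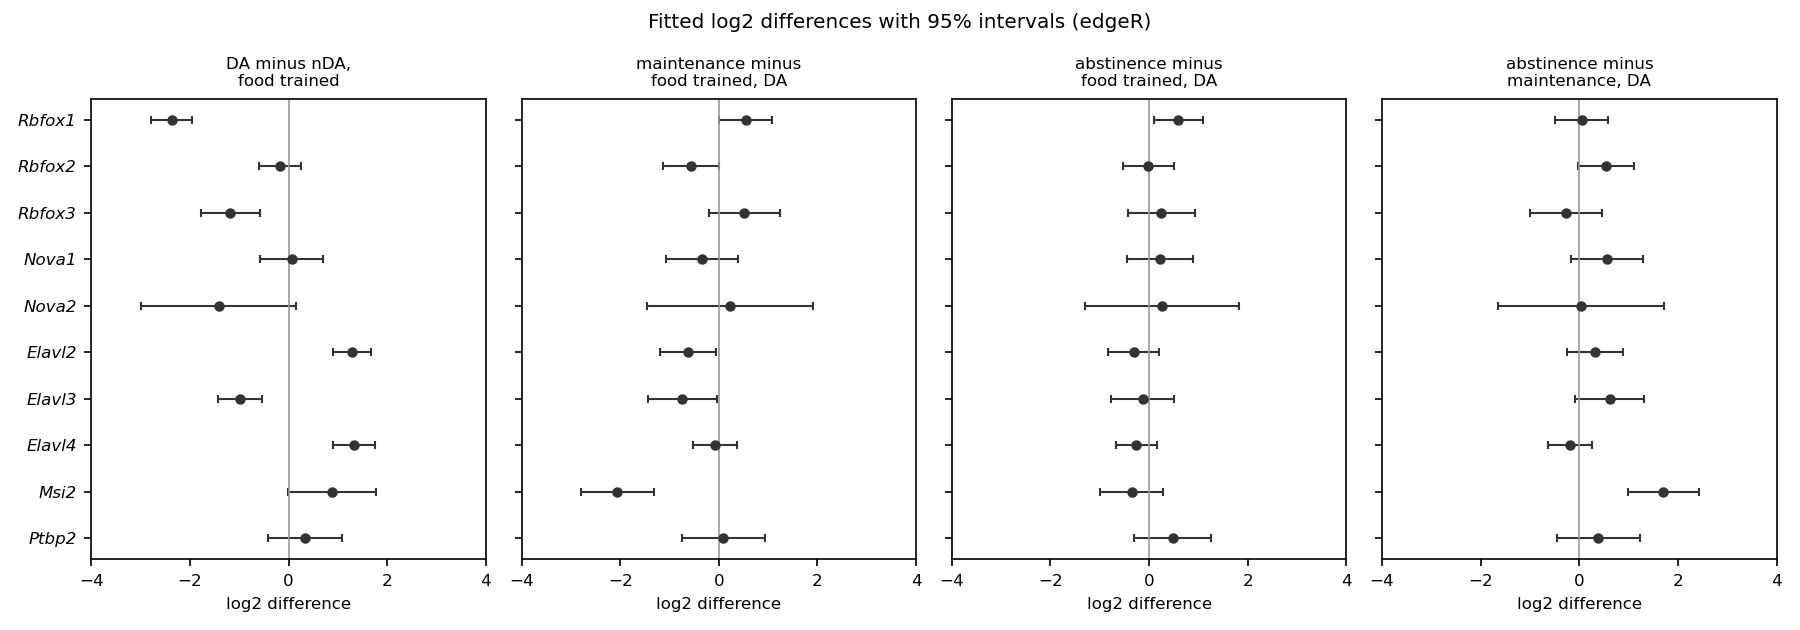
Fitted log2 differences of the 10 genes in 4 comparisons, with 95% intervals from edgeR's fits; the axis runs from -4 to 4. The population difference of Rbfox1 is -2.37, and among the stage comparisons the interval of Msi2 lies below 0 at maintenance against food training and above 0 at abstinence against maintenance.

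Other RNA-binding protein genes were taken from 6 lists of 89 genes in all, with no member among them. Between the populations 13 of the 89 were lower in DA nuclei and 0 higher, by edgeR's quasi-likelihood test, while 76 did not pass. Over all 19786 genes tested, 12.8% passed, 9.17% lower and 3.63% higher. The share of the 89 called in either direction was thus near that of all genes in this fit. Counting lower genes alone, 13 of the 89 stand against 9.17%. DESeq2 called 15 of the 89 lower and 3 higher, and without food-trained DA replicate 2 edgeR called 12 lower and 1 higher. With the replicate number as a block, 11 of the 89 were lower and 0 higher. Of all 19786 genes 362 were lower in that fit, and 3.92% were called in either direction, so the shares were not near each other there. Of the 13, 9 were among the 25 hnRNP proteins and nuclear partners, 2 among 15 SR-related and microexon regulators (Srsf5 and Srsf11), 1 among 8 STAR and KH proteins (Qk, which guides oligodendrocyte splicing) and 1 among 28 regulators of transport, stability and translation (Tial1). None of the 9 CELF and muscleblind genes or of 4 ubiquitous or non-neuronal paralogues of the members (Elavl1, Msi1, Ptbp1 and Ptbp3) passed. Hnrnpa2b1, an hnRNP protein of RNA transport, was at 132.9 ± 36.3 CPM in DA and 461 ± 74.0 CPM in nDA nuclei (SD, n = 4 each; log2 difference -1.78, SE 0.25, edgeR adjusted p 0.00642). Srsf5 was lower by 0.98 on the log2 scale and Hnrnpm by 1.35 (edgeR adjusted p 0.0067 each). The median over the 89 was -0.32, against -0.21 over all genes, and 9 of 13 oligodendrocyte markers were lower in DA nuclei in the same fit. Without nDA replicate 1, 3 or 4 the count of 13 was 8.

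Between stages these lists held few calls. At maintenance 0 of 88 tested genes passed against food training with edgeR, 12 had an unadjusted p under 0.05, against 11.6% of all genes, and DESeq2 called 7 of them and 992 of all genes. The lowest p-values were those of Celf3, a splicing regulator of neurons, at 9.47 ± 2.29 CPM (n = 3) against 38.9 ± 17.2 CPM (n = 4; edgeR adjusted p 0.0995), Qk at 515 ± 82.1 against 238 ± 68.2 CPM (edgeR adjusted p 0.136), Caprin1 and Srrm2. At abstinence against food training 0 of 88 passed with edgeR, 3 had an unadjusted p under 0.05, against 4.3% of all genes, and DESeq2 called 0. Hnrnpll and Tial1 had the lowest p-values, at 53.0 ± 11.9 against 28.1 ± 6.38 CPM and 201 ± 74.8 against 113.2 ± 10.9 CPM (n = 4 each; edgeR adjusted p 0.999974). Against maintenance, Celf3 was higher at abstinence, at 56.7 ± 11.4 CPM (n = 4; log2 difference 2.58, SE 0.45, edgeR adjusted p 0.0434), and the other 87 did not pass. No fit that left out a library kept this call.

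The genes whose pattern over the 15 libraries was most like that of Rbfox1 were found by the root mean square difference of log2 CPM, each gene centred on its own mean, among 18921 genes. They were Epb41l3 (0.29), Arpp21 (0.34) and Syne1 (0.35), against a median of 1.28 over all genes. A gene at the same level in all 15 libraries would score 0.95. Epb41l3, a membrane cytoskeleton protein of axons, had mean levels of 117.7, 219, 197.8 and 684 CPM in food-trained DA, maintenance, abstinence and nDA libraries. Over the 11 DA libraries alone, with no nDA library in the comparison, the nearest were Ncs1 (0.15), Pja2 (0.16) and Vps41 (0.21). A gene at the same level in all 11 would score 0.36. The part of RNA from other cell types in this pattern was not tested. The lists for 15 and for 11 libraries shared no name among these 3 each.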

How the data were processed

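The authors deposited whole-number counts per gene for 15 libraries. Per the submitters' processing notes, which give no order, Trim Galore 0.6.7, cutadapt 1.18, STAR 2.7.10a, StringTie 2.1.5, DESeq2 1.38.3, mm10 and GRCm38 were named; the annotation and any use of strand are not given in the sources used here. A second deposited table, named as normalized, held the same raw counts (0 cells differed in 10 columns) and was not used further. Libraries were made from amplified cDNA with no molecular identifiers stated, and were grouped by their titles.

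Genes were kept by filterByExpr, scaled by TMM factors and compared with edgeR 4.0.16 (R 4.3.3, two-sided quasi-likelihood test, Benjamini-Hochberg adjustment over all genes tested, threshold 0.05). The populations were fitted on 8 libraries and the stages on 11. SEs are the log2 difference divided by the root of F. Alternatives were DESeq2 1.42.0, other scalings, filters and library sets, a replicate block and leaving out each library. Scripts were tested on simulated data. The members and lists were chosen with earlier results of these data known. Named genes were the members, up to 4 listed genes in each direction with the lowest p among those past the threshold (otherwise the 4 with the lowest p), and the 3 genes most like Rbfox1 with at least 20 mean counts. A gene that this rule names is not reported here.

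Same-numbered DA and nDA libraries of food-trained mice deviated together from their group means (correlations of 0.116 to 0.262 over 8532 genes, in all 4 pairs). The highest value for unlike numbers was 0.146, for DA replicate 4 with nDA replicate 1. It was above the same-number values of replicates 1 (0.116) and 2 (0.127). All 4 DA libraries correlated most with the nDA library of their own number. The replicate numbers were therefore taken as pairs in the alternative fit with a replicate block, although the labels do not say so. The population results come from the fit without that block unless it is named, so their SEs and intervals do not use the pairing. Numbers did not pair the stages. Nothing says how pools were separated beyond their labels, so p-values measure the spread between these samples.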

Additional observations from a re-analysis of the deposited data

Results flagged for a closer look

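Of 45 sets of 4 libraries examined (member levels and paralogue ratios by group), 1 had a library standing apart from the other 3 by Dixon's criterion, where chance gives about 1 in 20. The log2 ratio of Elavl3 to Elavl4 was -1.11 in food-trained DA replicate 2, against -0.93 to -0.91 in the other 3 libraries. The gap was 0.94 of the whole range, against a critical value of 0.829. Maintenance, with 3 libraries, was not examined in this way.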

How the results depend on the processing

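The number of genes called for DA against nDA nuclei, 2534, was 3883 with the DESeq2 test, 775 with the replicate block and 965 with a term for the 4 libraries of low GC slope (added after seeing the data for this contrast), and 1900 to 3740 with a library left out. At maintenance against food training, 25 genes became 992 with DESeq2, 1 with only the 2 stages compared, 0 with the replicate block, 0 with the term for 4 libraries and 5 to 78 with a library left out. The single member call there, Msi2, became 0 with all 15 libraries in the fit (edgeR adjusted p 0.0637), with only the 2 stages (0.205), with the replicate block (0.26) and with the term (0.999925), and 0 to 1 with a library left out. At abstinence against food training, 0 became 145 with DESeq2. Against maintenance, 34 became 792 with DESeq2 (1 member), 15 with all libraries, 22 with only the 2 stages, 22 with upper quartile scaling, 2 with the replicate block, 1 with the term and 6 to 73 with a library left out. The 16 genes with any stage difference became 9 with all libraries, 0 with the block and 1 to 23 with a library left out. Of the 89 other genes, 13 called between populations, all lower, became 18 with DESeq2 (3 of them higher), 6 with the term and 8 to 14 with a library left out; at maintenance 0 became 7 with DESeq2 and 0 to 1 with a library left out; at abstinence against maintenance 1 became 4 with DESeq2 and 0 with upper quartile scaling, the block, the term and each library left out. The cause of these shifts was not tested.

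All 150 alternative values of the members' population differences lay within 1 SD of the reported ones, and Rbfox1 ran from -2.45 to -2.24 with a library left out. For Nova1 that bound was wider than the SE of 0.28. Without food-trained DA replicate 2 the Nova1 difference went from 0.06 to -0.24 and so changed sign. No group mean of a member moved by over 1 SD with DESeq2 size factors. Replicate numbers did not pair the stages, so the replicate block there uses a number alone: no pair of stages had all same-numbered correlations over 0.1. Nova2, at 62 to 2502 counts, is the member that depth limits most.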

Other observations

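Msi2's low level at maintenance was also set beside other genes, a choice made after its values were seen. By the same measure as for Rbfox1, the genes nearest to Msi2 over the 15 libraries were Rexo1 (root mean square difference 0.34), Mrps5 (0.38) and Trp53inp2 (0.39). The median over all genes was 1.22, and a gene at the same level in all 15 libraries would score 0.86. Rexo1 had mean levels of 85.8 CPM in food-trained DA, 28.0 CPM at maintenance, 75.7 CPM at abstinence and 71.1 CPM in nDA libraries. Trp53inp2 had 155.7, 44.8, 149.7 and 107.7 CPM in the same order. These genes share with Msi2 the 3 low maintenance libraries by construction of the search, so the values are a description only.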
